A study of Mus musculus with 9 samples.

Results

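RNA of the day 7 callus, the repair tissue that bridges a broken bone, was compared between 3 libraries from mice given SR-717 and 3 libraries from mice given PBS, 6 of the 9 libraries of the series. The libraries were chosen by their sample labels alone, and all genes of the table were kept, of which 14070 of 22054 passed the filter on low counts and were tested. All mice were male C57BL/6J, 7 weeks old by the labels, with a femoral fracture fixed by a needle in the marrow cavity. From the day after surgery the SR-717 group received 30 mg/kg of SR-717 in 200 μl by intraperitoneal injection every day for 1 week, and the PBS group received 200 μl of PBS. No allele other than the strain background and no second agent is named, so both groups are intact mice that differ in the injection. Neither the labels nor the methods say that each library came from its own mouse, and the vehicle of SR-717 is not given in the sources used here. The p-values therefore measure the spread between these 3 libraries a group, which may be technical.

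STING is a membrane protein of the endoplasmic reticulum that binds cGAMP, the cyclic dinucleotide that the enzyme cGAS makes when DNA reaches the cytosol. Bound STING recruits the kinase TBK1, which activates the transcription factor IRF3 and with it type I interferons, and STING also activates NF-κB, the transcription factor of inflammatory cytokines and chemokines. SR-717 is a small molecule that takes the place of cGAMP. In a healing fracture an inflammatory phase gives way to cartilage, which is then mineralized, resorbed by osteoclasts and replaced by bone. The comparison asks which of these programs differ when the agonist is given, and which differences are present in every SR-717 library.

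A library held 16987398 to 23272480 counts. The tissue label was checked against markers: genes of osteoblasts, cartilage, osteoclasts and fibroblasts were all expressed, with Col1a1, the main collagen of bone, at 20913 to 40926 CPM (counts per library size of 1e6 after TMM scaling). The extraction text of the labels speaks of cell lines, and the labels' tissue is bone. In bulk tissue fewer cells of a type and less RNA per cell cannot be told apart. SR-717 replicate 1 stood apart from the other libraries. On the first principal component of log2 CPM, which held 55.7% of the variance, it lay at 91.3, against -19.8 and -33.7 for replicates 2 and 3 and 30.03, -35.1 and -32.7 for PBS replicates 1 to 3. PBS replicate 1 lay on the same side. Values below are given in the order of the replicate numbers, which name the libraries.

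At an adjusted p under 0.05 (Benjamini-Hochberg), the quasi-likelihood test of edgeR called no gene (0 genes, 0%), and DESeq2 called 0 as well. The smallest adjusted p was 0.9999 in edgeR and 0.0731 in DESeq2. At an unadjusted p under 0.05, edgeR had 97 genes (0.689%) and DESeq2 had 178. Both counts lie below the number that this cutoff would give on average if no gene differed. At the thresholds used here, an unadjusted p under 0.05 together with a fold change of at least 1.5, 38 genes were higher in SR-717 (0.270% of those tested) and 35 were lower (0.249%). These are the genes called past the thresholds in what follows, and none of them held after the adjustment. Without SR-717 replicate 1, 60 genes were past the thresholds as higher (0.423%) and 46 as lower (0.324%). The fit of all 6 shared 15 and 18 of these genes. The libraries numbered 1 deviated together from their group means (correlation 0.668), whereas the pairing was uncertain for numbers 2 and 3 (0.360 and 0.136). SR-717 replicate 3 correlated more with PBS replicate 2 (0.367) than with PBS replicate 3. All results below with a block or by numbered pairs depend on this pairing. A fit that took the number as a block put 342 genes past the thresholds as higher (2.43%) and 101 as lower (0.718%). The smallest adjusted p of this edgeR fit was 0.9991. Its 534 genes at an unadjusted p under 0.05 were also fewer than this cutoff would give if no gene differed. With the block on pairs 2 and 3 alone the counts were 99 (0.699%) and 36 (0.254%). What a replicate number means is not given in the labels.

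Most genes that left the range of the PBS libraries did so in a single SR-717 library. A gene was counted as outside when a library lay at least 1.5-fold above the highest or below the lowest PBS library. SR-717 replicate 1 alone lay above for 1607 genes (11.4%) and below for 683 (4.85%). For SR-717 replicate 2 alone the counts were 136 above (0.967%) and 65 below (0.462%), and for replicate 3 alone 65 (0.462%) and 91 (0.647%). In 2 SR-717 libraries 59 genes lay above (0.419%) and 35 below (0.249%). All 3 SR-717 libraries lay above the PBS range for 5 genes (0.0355%) and below it for 4 (0.0284%). Single PBS libraries left the SR-717 range as well, PBS replicate 3 most often, with 395 genes above and 789 below, against 126 and 98 for replicate 1 and 71 and 134 for replicate 2. On the authors' TPM scale, SR-717 replicate 1 alone lay above for 1190 genes and below for 1190, with its median over all tested genes at -0.20 log2 units from the PBS mean, against -0.02 in CPM.

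**Figure D1:**
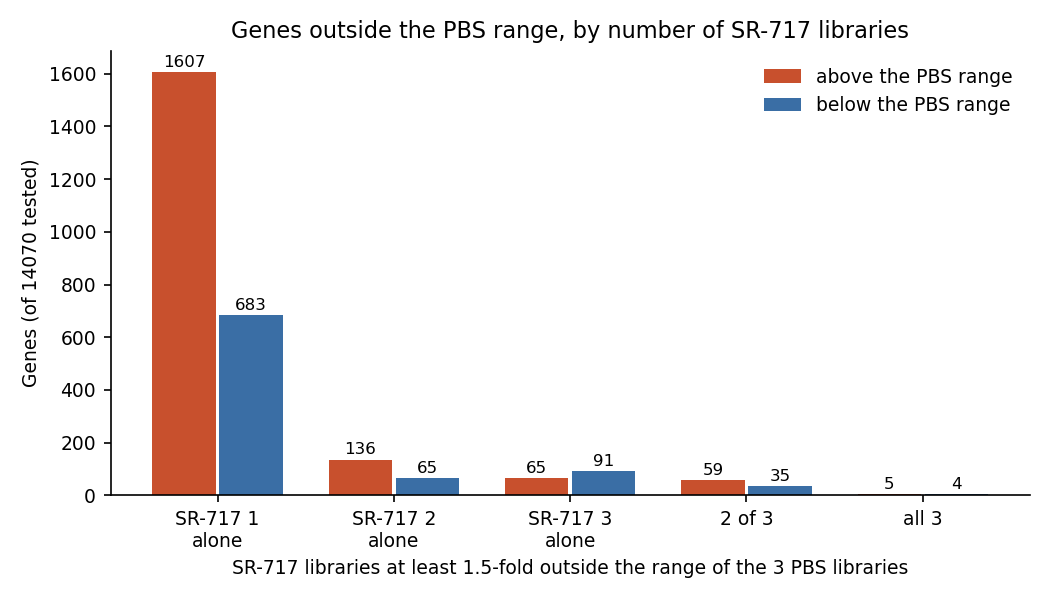
Number of genes (vertical axis) at least 1.5-fold above (orange) or below (blue) the range of the 3 PBS libraries, by which SR-717 libraries were outside (horizontal axis). The bars of SR-717 replicate 1 alone, 1607 and 683 genes, exceed all others, and the bars for all 3 libraries hold 5 and 4 genes.

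Hair genes led the 5 genes above the PBS range in every SR-717 library. Tchh (chr3:93442330-93449077 on GRCm38, the build that UCSC calls mm10), which encodes trichohyalin of the inner root sheath, had 0.452, 0.168 and 0.334 CPM in the PBS libraries and 3.32, 1.30 and 8.44 CPM in the SR-717 libraries. The groups did not overlap, and the highest library was SR-717 replicate 3 (log2 fold change 3.77, SE 0.81, past the thresholds; without SR-717 replicate 1, 3.93). Krt75 (chr15:101563345-101573904), a keratin of the companion layer of the hair follicle, had counts of 0, 6 and 4 in the PBS libraries and 16, 12 and 31 in the SR-717 libraries (log2 fold change 2.64, SE 0.88, past the thresholds). Krt83 (chr15:101485130-101491512), a keratin of the hair shaft, was past the thresholds with groups that did not overlap, at 0.565, 0.251 and 0.0556 CPM in the PBS libraries and 3.63, 0.604 and 2.60 CPM in the SR-717 libraries (log2 fold change 2.95, SE 0.91, past the thresholds). Dsp, which encodes desmoplakin of the desmosomes that hold epidermal cells together, had 0.283, 0.963 and 0.389 CPM in the PBS libraries and 2.45, 1.07 and 2.49 CPM in the SR-717 libraries (log2 fold change 1.83, SE 0.59, past the thresholds). Tchh, Krt75, Krt83 and Dsp passed the filter on low counts only through the SR-717 libraries, where they are higher, which limits their calls.

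The counts of hair shaft genes moved with these results. Of 23 listed hair follicle genes that the table lists, 2 passed the filter, and the counts of all 23 summed to 33, 37 and 19 in the PBS libraries and to 452, 101 and 821 in the SR-717 libraries. The 57 genes of keratin-associated proteins, which cross-link keratins in the hair shaft, had 0 counts in each PBS library, which allows up to 3 counts or 0.126 to 0.170 CPM by counting error, and 259, 32 and 520 counts over 51 genes in the SR-717 libraries. In H-151 replicate 1, from mice given the STING inhibitor H-151, they held 7.89 CPM, against 12.5, 1.48 and 30.3 CPM in the SR-717 libraries (here without TMM scaling) and 1 count in each of the other H-151 libraries. Of 20 listed keratinocyte genes 7 were tested, and the list's summed level was 28.1 to 31.0 CPM in the PBS libraries and 34.7 to 45.4 CPM in the SR-717 libraries. Sbsn and Sfn, its most abundant members, had log2 fold changes of -0.37 ± 0.29 and 0.67 ± 0.47 (± SE), and Sfn was past the thresholds with the block (0.66 ± 0.23). Hair or skin taken along with the callus was not tested as the source.

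**Figure D2:**
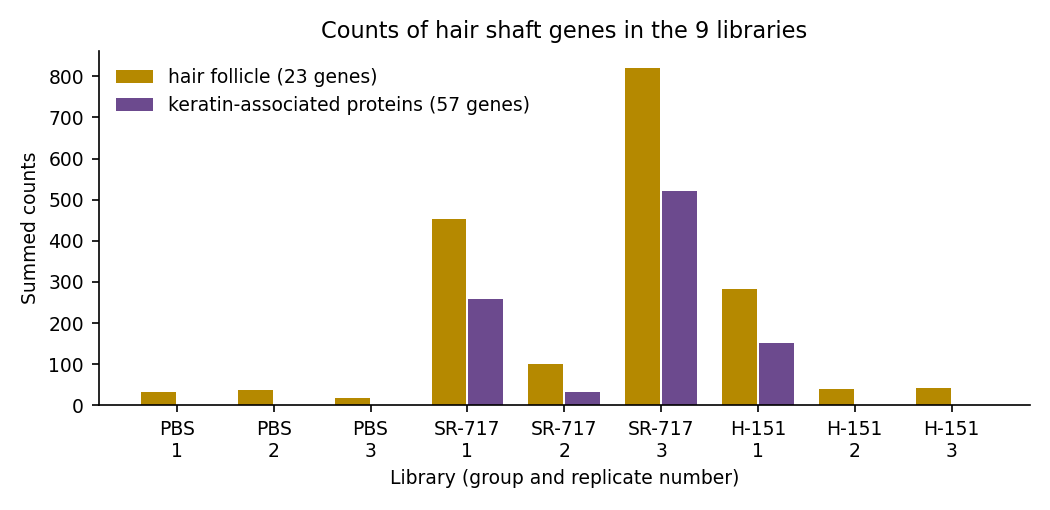
Summed counts (vertical axis) of hair follicle genes (ochre) and keratin-associated protein genes (purple) in each of the 9 libraries (horizontal axis). The PBS libraries hold 0 counts of keratin-associated proteins, SR-717 replicates 1 and 3 hold 259 and 520, and H-151 replicate 1 lies above the other H-151 libraries, which hold 1 each.

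The other 3 genes above the PBS range in all SR-717 libraries were expressed at a low level. Cd300ld5 (chr11:115031486-115037769), a member of the CD300 family of myeloid surface receptors, had 0, 1.30 and 0 CPM in the PBS libraries and 4.60, 2.65 and 2.26 CPM in the SR-717 libraries and was short of the thresholds (log2 fold change 2.77 ± 1.33) without the block and past them with it (3.52 ± 1.34). Ugt1a1 (chr1:88211959-88218997), the enzyme that conjugates bilirubin, had 0.509, 0.419 and 0 CPM in the PBS libraries and 2.61, 0.930 and 1.10 CPM in the SR-717 libraries (log2 fold change 2.28, SE 0.94, past the thresholds), and its reads can be shared with the other Ugt1a transcripts, which use the same last exons. The predicted gene 3830403N18Rik on chromosome X, chosen after its values were seen, had 0.622, 0.419 and 0.667 CPM in the PBS libraries and 1.23, 3.35 and 1.16 CPM in the SR-717 libraries. Cd300ld5 and Ugt1a1 also passed the filter on low counts only through the SR-717 libraries.

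Necab3 led the 4 genes below the PBS range in all SR-717 libraries. Necab3 (chr2:154544399-154558890), a member of a family of calcium-binding proteins known from neurons, was chosen after its values were seen and had counts of 12, 14 and 10 in the PBS libraries and 2, 2 and 2 in the SR-717 libraries (log2 fold change -2.49, SE 0.42, past the thresholds), the gene with the smallest p of the comparison. Fam89a (chr8:124740257-124751832) had 2.54, 2.72 and 2.17 CPM in the PBS libraries and 1.38, 1.21 and 1.39 CPM in the SR-717 libraries (log2 fold change -0.90, SE 0.27, past the thresholds), and Lrrc73 (chr17:46253531-46257315) had 2.32, 2.51 and 2.34 CPM in the PBS libraries and 0.869, 0.837 and 1.39 CPM in the SR-717 libraries (log2 fold change -1.21, SE 0.33, past the thresholds). The noncoding transcript 4930563E22Rik on chromosome 11, also chosen after its values were seen, had 0.509, 1.05 and 0.834 CPM in the PBS libraries and 0.153, 0.279 and 0.173 CPM in the SR-717 libraries. Necab3 and 4930563E22Rik passed the filter on low counts only through the PBS libraries, where they are higher, which limits their calls. The groups did not overlap in any of the 4, and without SR-717 replicate 1 the log2 fold changes were -2.48 for Necab3, -0.93 for Fam89a and -1.10 for Lrrc73.

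Groups that did not overlap, at any distance, were found for 210 genes higher in SR-717 (1.49%) and 318 genes lower (2.26%). Of the genes past the thresholds, 31 of 38 higher and 32 of 35 lower were among them. SR-717 replicate 1 was the highest library for 21 of the 38 higher genes.

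Several of the higher genes are known from macrophages and lymphocytes. Mmp12, macrophage elastase, was chosen after its values were seen and had 59.5, 80.0 and 81.2 CPM in the PBS libraries and 119, 127 and 116 CPM in the SR-717 libraries (log2 fold change 0.71, SE 0.17, past the thresholds), so that the SR-717 libraries lay within 116 to 127 CPM and all above the PBS libraries. Gapt, an adaptor protein that binds GRB2 in haematopoietic cells, had 2.71, 2.05 and 0.779 CPM in the PBS libraries and 12.3, 5.30 and 2.95 CPM in the SR-717 libraries (log2 fold change 1.89, SE 0.67, past the thresholds). Prf1, the pore-forming perforin of cytotoxic cells, had 1.02, 0.754 and 0.612 CPM in the PBS libraries and 6.08, 1.53 and 1.39 CPM in the SR-717 libraries (log2 fold change 1.91, SE 0.67, past the thresholds). Gzmd, a granzyme chosen after its values were seen, was lower (log2 fold change -0.82, SE 0.32, past the thresholds). It had 6.33, 4.10 and 4.51 CPM in the PBS libraries and 3.37, 2.05 and 3.01 CPM in the SR-717 libraries. H2-Q6, a class I molecule, had 20.6, 19.4 and 7.45 CPM in the PBS libraries and 122, 41.3 and 21.3 CPM in the SR-717 libraries (log2 fold change 1.96, SE 0.71, past the thresholds), and its reads can be shared with the near-identical H2-Q7. H2-Oa, a chain of the molecule that tunes peptide loading of class II, had 0.848, 0.503 and 0.667 CPM in the PBS libraries and 2.10, 1.26 and 1.21 CPM in the SR-717 libraries (log2 fold change 1.18, SE 0.40, past the thresholds). Aspa, which cleaves N-acetylaspartate, had 0.735, 0.377 and 0.556 CPM in the PBS libraries and 6.85, 1.12 and 1.503 CPM in the SR-717 libraries (log2 fold change 2.50, SE 0.80, past the thresholds). For Gapt, Prf1, H2-Q6 and Aspa the highest library was SR-717 replicate 1, and without it the log2 fold changes were 1.16, 0.88, 0.99 and 1.24.

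Metabolic and signaling genes were also among the higher ones. Car3, a carbonic anhydrase of muscle and fat, had 110.2, 143 and 177 CPM in the PBS libraries and 201, 243 and 202 CPM in the SR-717 libraries (log2 fold change 0.59, SE 0.22, past the thresholds). Adm, which encodes the vasodilator adrenomedullin, had 3.67, 5.36 and 2.84 CPM in the PBS libraries and 8.69, 7.11 and 5.61 CPM in the SR-717 libraries (log2 fold change 0.85, SE 0.33, past the thresholds). A further 3 were chosen after their values were seen. Dio2, the deiodinase that makes active thyroid hormone, had 7.52, 5.95 and 7.01 against 14.2, 10.04 and 8.85 CPM for PBS and SR-717 (log2 fold change 0.69, SE 0.26, past the thresholds), Egr2, a zinc finger transcription factor, had 6.22, 5.07 and 4.51 against 7.87, 10.2 and 7.34 CPM (log2 fold change 0.69, SE 0.25, past the thresholds), and Spic, a transcription factor of iron-recycling macrophages, had 3.11, 2.18 and 2.56 against 5.42, 3.95 and 3.59 CPM (log2 fold change 0.72, SE 0.30, past the thresholds). In none of these 5 genes did the groups overlap.

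Among the lower genes past the thresholds, Styx-ps on chromosome X had the largest fold change, with 3.67, 1.01 and 8.45 CPM in the PBS libraries and 0.409, 0.139 and 0.925 CPM in the SR-717 libraries (log2 fold change -3.16, SE 0.96, past the thresholds). Its name marks it as a pseudogene, whereas GENCODE M21 lists it as protein coding. If it is a pseudogene, its reads can come from a near-identical copy. Pak3, a serine/threonine kinase, had 5.37, 6.91 and 12.3 CPM in the PBS libraries and 2.66, 3.21 and 3.87 CPM in the SR-717 libraries (log2 fold change -1.34, SE 0.38, past the thresholds). Muc2, a secreted mucin, had 1.47, 0.796 and 1.45 CPM in the PBS libraries and 0.460, 0.511 and 0.405 CPM in the SR-717 libraries (log2 fold change -1.41, SE 0.39, past the thresholds), and Cdc14b, a phosphatase of the cell cycle, had 6.84, 4.65 and 13.3 CPM in the PBS libraries and 3.48, 4.05 and 3.64 CPM in the SR-717 libraries (log2 fold change -1.15, SE 0.42, past the thresholds). Lrrc73, above, and Fam161b, Duxbl1 and Aff2 completed the 8 genes with the largest fold change among non-overlapping genes with a mean of at least 1 CPM in a group, predicted genes left out, and the last 3 had log2 fold changes of -1.12, -1.08 and -0.99, with at most 2.88 CPM in any library, and with the block Duxbl1 was short of the thresholds.

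A further 5 lower genes were chosen after their values were seen. Ccn2, a matricellular protein induced by TGF-β and mechanical load, had 269.6, 217 and 206 CPM in the PBS libraries and 103, 153 and 157 CPM in the SR-717 libraries (log2 fold change -0.75, SE 0.22, past the thresholds). Hmcn1, a large extracellular matrix protein, had 17.4, 19.5 and 17.2 CPM in the PBS libraries and 9.30, 9.997 and 12.3 CPM in the SR-717 libraries (log2 fold change -0.78, SE 0.19, past the thresholds), and Car12, a carbonic anhydrase of the cell surface, had 25.6, 18.2 and 21.7 CPM in the PBS libraries and 10.3, 13.1 and 12.8 CPM in the SR-717 libraries (log2 fold change -0.86, SE 0.21, past the thresholds). Thrb, a receptor of thyroid hormone, had 3.67, 3.48 and 3.56 CPM in the PBS libraries and 1.64, 1.81 and 2.54 CPM in the SR-717 libraries (log2 fold change -0.84, SE 0.28, past the thresholds), and Lgr5, a receptor of R-spondins in Wnt signaling, had 4.92, 3.73 and 2.67 CPM in the PBS libraries and 1.64, 1.72 and 2.60 CPM in the SR-717 libraries (log2 fold change -0.93, SE 0.36, past the thresholds; with the block, log2 fold change -0.92, SE 0.39, short of the thresholds). The PBS libraries lay above the SR-717 libraries without overlap in all 5.

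**Figure D3:**
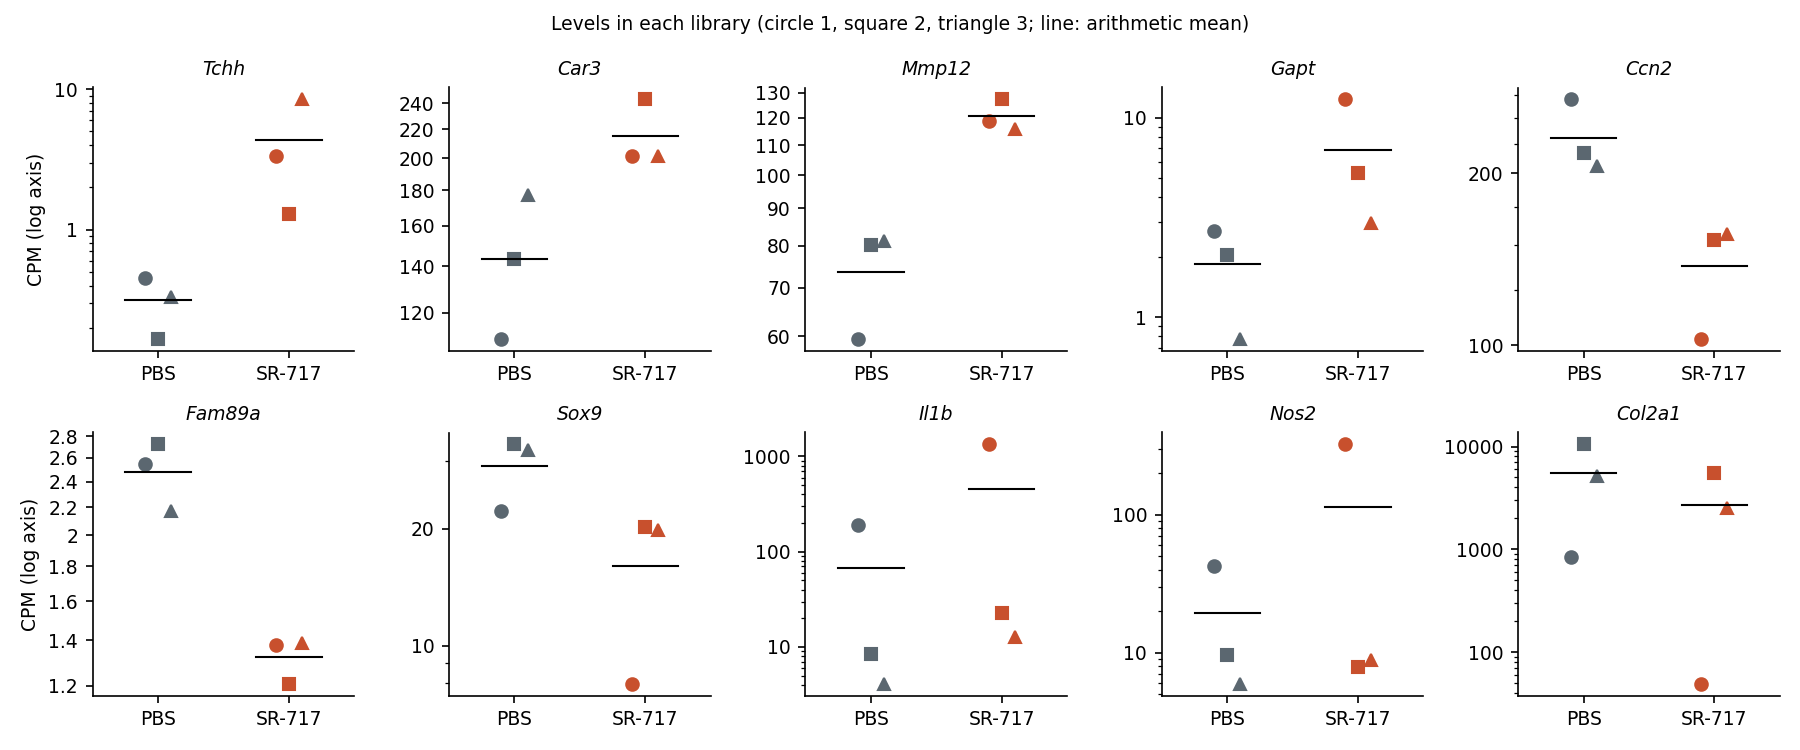
CPM on a log axis (vertical) of 10 genes in PBS (grey) and SR-717 (orange) libraries, with a marker for each replicate number and a line at the arithmetic mean. The groups do not overlap for Tchh, Car3, Mmp12, Gapt, Ccn2, Fam89a and Sox9, whereas for Il1b, Nos2 and Col2a1 the libraries numbered 1 lie far from the others in both groups.

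Genes of the STING pathway itself did not pass the thresholds. The level of a list is the mean log2 CPM of its tested genes in a library. For the 18 genes of the cGAS-STING core it was 5.10, 4.96 and 4.76 in the PBS libraries and 5.46, 4.89 and 4.87 in the SR-717 libraries, and 0 of 18 were past the thresholds in either direction (background 0.270% and 0.249%). Sting1, the receptor, had 57.4, 36.1 and 31.3 CPM in the PBS libraries and 88.7, 38.1 and 41.9 CPM in the SR-717 libraries (log2 fold change 0.43, SE 0.40, short of the thresholds). Cgas, the DNA sensor, had 4.86, 2.64 and 2.50 CPM in the PBS libraries and 5.62, 2.74 and 3.06 CPM in the SR-717 libraries (log2 fold change 0.19, SE 0.43, short of the thresholds), and the kinase Tbk1 had 22.9, 14.9 and 15.6 CPM in the PBS libraries and 34.7, 16.3 and 16.1 CPM in the SR-717 libraries (log2 fold change 0.33, SE 0.37, short of the thresholds). Irf3, the factor that TBK1 activates, had 32.0, 42.3 and 36.9 CPM in the PBS libraries and 37.6, 33.6 and 36.9 CPM in the SR-717 libraries (log2 fold change -0.04, SE 0.16, short of the thresholds). Surf4 and Samhd1, the members with the highest CPM, had log2 fold changes of -0.16 ± 0.18 and 0.67 ± 0.42 (± SE). SR-717 replicate 1 alone lay above the PBS range for 7 of the 18 genes (background 11.4%).

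Interferon-stimulated genes, the classical readout of type I interferon, were highest in both libraries numbered 1. Their level over 39 tested genes was 4.92, 4.16 and 3.398 in the PBS libraries and 5.46, 4.02 and 3.60 in the SR-717 libraries, and 0 of 39 were past the thresholds, with the block included. SR-717 replicate 2 lay below PBS replicate 2. Ifit1, which binds foreign RNA, had 12.3, 1.88 and 1.39 CPM in the PBS libraries and 11.1, 2.23 and 2.08 CPM in the SR-717 libraries (log2 fold change -0.0032, SE 1.04, short of the thresholds), and Isg15, a ubiquitin-like modifier, had 30.1, 20.3 and 10.6 CPM in the PBS libraries and 45.7, 16.5 and 13.9 CPM in the SR-717 libraries (log2 fold change 0.32, SE 0.57, short of the thresholds). Irf7, which amplifies the interferon response, had 95.6, 66.4 and 22.8 CPM in the PBS libraries and 148, 49.4 and 37.8 CPM in the SR-717 libraries (log2 fold change 0.35, SE 0.68, short of the thresholds). For Cxcl10, a chemokine that attracts T cells, SR-717 replicate 1 stood alone at 141 CPM, with 5.30 and 4.68 in replicates 2 and 3 and 27.4, 6.49 and 3.23 CPM in the PBS libraries. Ifitm3 and Lgals3bp, the most abundant, had log2 fold changes of 0.16 ± 0.44 and 0.17 ± 0.29. The GTPases and regulators that respond mainly to interferon-gamma rested on SR-717 replicate 1: the level over 20 genes was 3.83, 3.16 and 2.81 in the PBS libraries and 5.92, 3.36 and 2.78 in the SR-717 libraries, and SR-717 replicate 1 alone was above the PBS range for 19 of 20 (background 11.4%). Gbp2, a guanylate-binding protein of cell-autonomous immunity, had 43.5, 20.7 and 14.7 CPM in the PBS libraries and 272, 17.8 and 18.6 CPM in the SR-717 libraries, and Irf1, a transcription factor of the response, 70.1, 49.8 and 43.2 CPM in the PBS libraries and 221, 52.4 and 44.5 CPM in the SR-717 libraries. None of the 20 was past the thresholds, and with the replicate block 2 were higher (background 2.43%), and 0 on pairs 2 and 3.

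Genes of antigen presentation were highest in SR-717 replicate 1 as well. The level of 20 class I genes was 6.34, 6.02 and 5.55 in the PBS libraries and 7.56, 6.22 and 5.99 in the SR-717 libraries, so that each SR-717 library lay above the PBS library of its number, by 1.23, 0.20 and 0.44 log2 units. SR-717 replicate 3 (5.99) lay below PBS replicate 2 (6.02). H2-Q6 alone was past the thresholds, 7 were past them with the replicate block (background 2.43%), and 2 with the block on pairs 2 and 3 (background 0.699%). H2-D1, a classical class I heavy chain, had 1075, 889 and 576 CPM in the PBS libraries and 2418, 1010.0 and 882 CPM in the SR-717 libraries (log2 fold change 0.76, SE 0.46, short of the thresholds; with the block, log2 fold change 0.66, SE 0.25, past the thresholds), while Calr, a chaperone of class I folding, had 825, 897 and 786 CPM in the PBS libraries and 930.3, 852 and 894 CPM in the SR-717 libraries. The level of 11 class II genes was 4.72, 4.70 and 4.24 in the PBS libraries and 5.88, 4.69 and 4.35 in the SR-717 libraries, with 1 gene, H2-Oa, past the thresholds with and without the block. Cd74, the invariant chain, had 284, 291 and 188 CPM in the PBS libraries and 728, 250.4 and 203 CPM in the SR-717 libraries, and Ctss, the protease that trims it, 596, 230.5 and 309 CPM in the PBS libraries and 1113, 391 and 276 CPM in the SR-717 libraries. SR-717 replicate 1 alone lay above the PBS range for 17 of 20 class I and 10 of 11 class II genes (background 11.4%).

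Inflammatory targets of NF-κB were highest in both libraries numbered 1, and each SR-717 library exceeded the PBS library of its number. The level over 33 genes was 5.82, 3.38 and 3.24 in the PBS libraries and 7.34, 3.91 and 3.73 in the SR-717 libraries, which gave differences of 1.51, 0.53 and 0.49 within the numbers. Il1b, the cytokine interleukin-1β, had 191, 8.38 and 4.12 CPM in the PBS libraries and 1336, 22.9 and 12.7 CPM in the SR-717 libraries. The groups overlap because PBS replicate 1 exceeded SR-717 replicates 2 and 3, and the log2 fold change was 2.76 ± 2.15 (± SE) without the block, short of the thresholds, and 1.98 ± 0.33 with it, past them. Saa3, an acute phase protein, had 907, 2.64 and 2.06 CPM in the PBS libraries and 2387, 32.7 and 5.03 CPM in the SR-717 libraries, and Lcn2, an iron-sequestering protein of neutrophils and epithelia, had 420.0, 171 and 30.04 CPM in the PBS libraries and 1596, 193 and 122 CPM in the SR-717 libraries. Both were past the thresholds with the block alone, at log2 fold changes of 2.09 ± 0.55 and 1.39 ± 0.43. Tnf had 19.3, 3.31 and 2.11 CPM in the PBS libraries and 80.1, 3.58 and 3.70 CPM in the SR-717 libraries (log2 fold change 1.82, SE 1.45, short of the thresholds), and Il6 did not pass the filter on low counts.

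Over the list 0 of 33 genes were past the thresholds without the block, 13 were higher with it (background 2.43%), and 5 were higher with the block on pairs 2 and 3 (background 0.699%). In all 3 numbered pairs 19 of 33 were higher in SR-717 and 0 lower, against 11.0% and 12.4% of all tested genes. Nos2 (chr11:78920787-78960254), the inducible nitric oxide synthase of activated macrophages, was lower in SR-717 in pair 2, with 42.5, 9.63 and 5.95 CPM in the PBS libraries and 325, 7.81 and 8.85 CPM in the SR-717 libraries. Without SR-717 replicate 1, and with PBS replicate 1 kept, the unblocked log2 fold changes of these genes turned negative, from 2.56 to -1.23 for Nos2, from 2.76 to -1.94 for Il1b, from 1.82 to -1.19 for Tnf, from 1.41 to -4.02 for Saa3 and from 1.62 to -0.41 for Lcn2. The median of the list turned from 0.90 to -0.61, was also negative in limma with voom and quality weights, and was 0.70 with the block and 0.36 with the block on pairs 2 and 3. The subunit genes varied less. Nfkb1 had 72.2, 66.0 and 53.6 CPM in the PBS libraries and 120.0, 53.6 and 60.3 CPM in the SR-717 libraries (log2 fold change 0.29, SE 0.34, short of the thresholds), and Rela had 88.9, 95.6 and 61.6 CPM in the PBS libraries and 126, 65.1 and 77.5 CPM in the SR-717 libraries (log2 fold change 0.13, SE 0.30, short of the thresholds). KEGG's NF-kappa B signaling pathway, read from the table's annotation, had 0 of 108 genes past the thresholds and 10 higher with the block (background 2.43%), and the cytosolic DNA-sensing pathway 0 and 2 of 46. With the block on pairs 2 and 3 these counts were 3 and 1 (background 0.699%). Cxcl12, a chemokine of stromal cells, and Nfkbia, the inhibitor of NF-κB, had log2 fold changes of 0.16 ± 0.19 and 0.86 ± 0.91.

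Promoter sequences of 4 of these genes are shown because they carry the letters of the 2 factors downstream of STING, NF-κB and the IRF family. RefSeq windows of the 250 bases before the start of a gene, on GRCm38.p6, were searched on both strands for a κB motif, GGGA and TTTCC with any 1 base between them, and for an interferon-stimulated response element, TTTC and TTTC with any 2 bases between them. The κB letters were in 5 of 23 NF-κB target genes with a window (21.7%) and in 0.414% of all 27025 genes with one. The response element was in 12 of 28 interferon-stimulated genes (42.9%) and in 3.46% of all genes. A match describes these letters only, and the lists were made of known targets, so their shares do not bear on the effect of SR-717. Cxcl2, a chemokine for neutrophils chosen after its values were seen, was higher in SR-717 in each numbered pair, with 91.3, 1.84 and 3.50 CPM in the PBS libraries and 331, 4.42 and 7.29 CPM in the SR-717 libraries (with the block, log2 fold change 1.42, SE 0.22, past the thresholds). Nfkbia encodes the inhibitor that NF-κB induces against itself, and its pair differences were 1.18, -0.13 and 0.29 log2 units. Cxcl10 and Ifit1, described above, carry the response element. The windows run 5′ to 3′ on the strand of the gene, with motif letters in capitals.
Cxcl2 (chr5:90903649-90903898, plus strand): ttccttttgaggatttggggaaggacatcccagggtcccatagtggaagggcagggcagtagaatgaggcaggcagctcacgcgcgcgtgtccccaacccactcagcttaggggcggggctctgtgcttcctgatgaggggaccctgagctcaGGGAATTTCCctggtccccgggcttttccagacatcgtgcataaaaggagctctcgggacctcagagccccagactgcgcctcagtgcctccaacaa
Nfkbia (chr12:55492648-55492897, minus strand): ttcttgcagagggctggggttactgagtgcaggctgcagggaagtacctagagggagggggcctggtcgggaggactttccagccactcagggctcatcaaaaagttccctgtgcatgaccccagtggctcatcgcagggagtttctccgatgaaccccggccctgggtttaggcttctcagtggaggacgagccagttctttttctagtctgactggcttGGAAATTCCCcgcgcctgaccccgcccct
Cxcl10 (chr5:92348890-92349139, minus strand): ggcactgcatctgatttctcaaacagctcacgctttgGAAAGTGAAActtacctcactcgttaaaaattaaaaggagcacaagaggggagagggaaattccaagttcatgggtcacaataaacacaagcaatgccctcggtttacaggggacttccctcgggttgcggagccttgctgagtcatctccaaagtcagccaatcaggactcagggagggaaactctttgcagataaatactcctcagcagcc
Ifit1 (chr19:34640639-34640888, plus strand): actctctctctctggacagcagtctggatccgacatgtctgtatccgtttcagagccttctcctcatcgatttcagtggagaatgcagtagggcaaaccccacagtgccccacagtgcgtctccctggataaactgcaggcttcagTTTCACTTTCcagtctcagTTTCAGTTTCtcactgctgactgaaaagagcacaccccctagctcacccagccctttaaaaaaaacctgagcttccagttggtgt

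Neutrophil genes had the largest median log2 fold change in the fit with the block among the lists with at least 5 tested genes. Their level over 23 genes was 6.22, 5.05 and 3.29 in the PBS libraries and 8.32, 5.59 and 4.93 in the SR-717 libraries, and the SR-717 library was higher than the PBS library of its number by 2.10, 0.53 and 1.63 log2 units. S100a9, which with S100a8 forms the calprotectin of the neutrophil cytosol, had 1189.7, 680.3 and 182 CPM in the PBS libraries and 5189, 1010.0 and 763 CPM in the SR-717 libraries. Ngp, a protein of secondary granules, had 761, 860.3 and 132 CPM in the PBS libraries and 2930.1, 988 and 617 CPM in the SR-717 libraries. In both genes each SR-717 library exceeded its numbered PBS library, and PBS replicate 1 exceeded 1 or more SR-717 libraries, so the groups overlap. Their log2 fold changes were 1.76 ± 0.95 and 1.37 ± 0.84 (± SE) without the block, short of the thresholds, and 1.60 ± 0.39 and 1.47 ± 0.46 with it, past them.

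Without the block 0 of 23 neutrophil genes were past the thresholds. With it 20 of 23 were higher and 0 lower (background 2.43% and 0.718%), at a median log2 fold change of 1.47, and on pairs 2 and 3 alone 9 were higher (background 0.699%) and all 23 had a positive sign. These signs depend on the pairing by number, which is uncertain for numbers 2 and 3. The list level of SR-717 replicate 3 (4.93) lay below that of PBS replicate 2 (5.05). The median was 1.65 without the block and 0.27 without SR-717 replicate 1, against 0.01 and -0.02 over all tested genes. In pair 1 all 23 genes were higher, in pair 2 19 and in pair 3 all 23, with pair 2 the smallest by its median, 0.33 log2 units against 2.03 and 1.86. SR-717 replicate 1 alone was above the PBS range for all 23 genes at the distance used (background 11.4%). Among members chosen after their values were seen, S100a8 had 644, 344 and 99.1 CPM in the PBS libraries and 2483, 691 and 383 CPM in the SR-717 libraries (with the block, log2 fold change 1.64, SE 0.27, past the thresholds), Il1r2, a decoy receptor of interleukin-1, had 24.7, 2.14 and 0.501 CPM in the PBS libraries and 102, 5.02 and 2.78 CPM in the SR-717 libraries (with the block, log2 fold change 1.85, SE 0.28, past the thresholds), and Retnlg, a secreted protein of mature neutrophils, was the 1 member whose groups did not overlap, with 80.0, 79.4 and 23.4 CPM in the PBS libraries and 462, 115 and 83.6 CPM in the SR-717 libraries (log2 fold change 1.85, SE 0.78, short of the thresholds; with the block, log2 fold change 1.64, SE 0.42, past the thresholds).

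Macrophage, T and NK cell and B lineage genes were also higher in each SR-717 library than in the PBS library of its number, by their list levels. The level of 21 macrophage genes was 6.25, 5.45 and 4.98 in the PBS libraries and 7.27, 5.73 and 5.47 in the SR-717 libraries, with differences of 1.01, 0.27 and 0.49 within the numbers and 6 genes higher with the block (background 2.43%) and 1 with the block on pairs 2 and 3 (background 0.699%). Lyz2, lysozyme of myeloid cells, had 3538, 2512 and 2167 CPM in the PBS libraries and 6526, 2746 and 2558 CPM in the SR-717 libraries (log2 fold change 0.53, SE 0.44, short of the thresholds), and Csf1r, the receptor of the macrophage growth factor CSF1, had 401, 384 and 305 CPM in the PBS libraries and 602, 368 and 372 CPM in the SR-717 libraries (log2 fold change 0.30, SE 0.26, short of the thresholds). The level of 18 T and NK cell genes was 1.17, 0.73 and 0.23 in the PBS libraries and 2.55, 1.202 and 0.56 in the SR-717 libraries, with Prf1 past the thresholds, 6 genes higher with the block (background 2.43%) and 1 with the block on pairs 2 and 3 (background 0.699%). Cd4, a T cell coreceptor, had 14.2, 10.8 and 6.95 CPM in the PBS libraries and 18.6, 13.1 and 10.2 CPM in the SR-717 libraries, and Il2rb, a receptor chain of interleukin-2, 7.40, 6.83 and 2.73 CPM in the PBS libraries and 24.2, 8.56 and 4.45 CPM in the SR-717 libraries (with the block, log2 fold change 0.92, SE 0.34, past the thresholds). The level of 13 B lineage genes was -0.02, 2.64 and 0.74 in the PBS libraries and 0.76, 3.04 and 1.58 in the SR-717 libraries, and its differences within the numbers were 0.78, 0.40 and 0.84, with 0 genes past the thresholds, 2 higher with the block (background 2.43%) and 1 with the block on pairs 2 and 3 (background 0.699%). In the B lineage level PBS replicate 2 lay above SR-717 replicates 1 and 3, and the levels of the groups overlapped in each of these lists. For T and NK cell genes SR-717 replicate 3 (0.56) lay below PBS replicate 2 (0.73). The differences within the numbers depend on the pairing, which is uncertain for numbers 2 and 3. Ebf1 and Cd22 had log2 fold changes of -0.13 ± 0.26 and 0.19 ± 0.32. Over the 197 genes of the 9 immune and inflammatory lists, SR-717 replicate 1 alone lay above the PBS range for 139 (70.6%, background 11.4%), and the groups did not overlap for 5 as higher (background 1.49%).

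**Figure D4:**
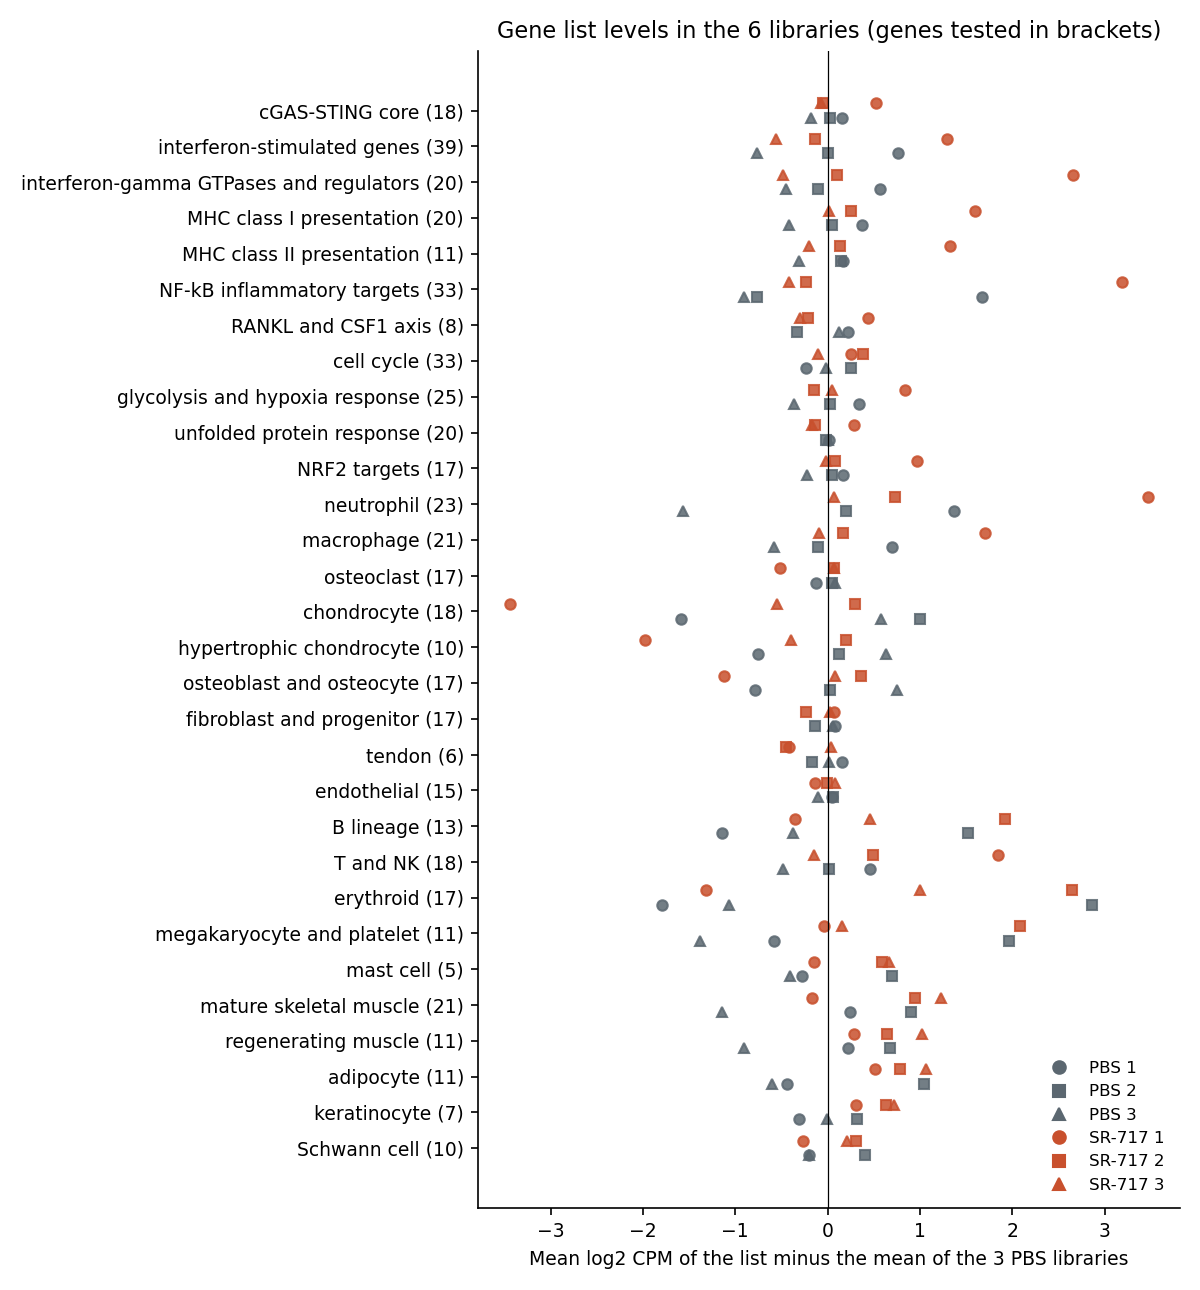
Mean log2 CPM of each gene list in a library minus the mean of the 3 PBS libraries (horizontal axis), for PBS (grey) and SR-717 (orange) libraries, with the marker showing the replicate number and the number of tested genes in brackets. SR-717 replicate 1 lies to the right of all PBS libraries for the neutrophil, NF-κB and MHC lists and to the left for the chondrocyte and hypertrophic chondrocyte lists, and PBS replicate 3 lies to the left of all libraries for muscle.

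Cartilage genes were lower in SR-717 within the numbered pairs. The level of 18 chondrocyte genes was 4.91, 7.49 and 7.07 in the PBS libraries and 3.06, 6.78 and 5.94 in the SR-717 libraries, and the differences within the numbers were -1.85, -0.71 and -1.13 log2 units. Sox9, the transcription factor that sets the chondrocyte fate, had 22.2, 33.0 and 32.0 CPM in the PBS libraries and 7.97, 20.2 and 19.9 CPM in the SR-717 libraries. All SR-717 libraries lay below all PBS libraries for Sox9, with a log2 fold change of -0.86 ± 0.39 without the block, short of the thresholds, and -0.95 ± 0.23 with it, past them. Col2a1, the main collagen of cartilage, had 849, 10467 and 5221 CPM in the PBS libraries and 49.6, 5524 and 2547 CPM in the SR-717 libraries, and Acan, its main proteoglycan, had 266, 1504 and 948 CPM in the PBS libraries and 87.3, 912 and 776 CPM in the SR-717 libraries. For both, each SR-717 library was lower than the PBS library of its number, and the libraries numbered 1 were the lowest of their groups. Their log2 fold changes were -1.03 ± 1.44 and -0.61 ± 0.92 without the block and -1.93 ± 0.76 and -0.87 ± 0.30 with it, where Acan was past the thresholds and Col2a1 was not. Col11a1, a fibril collagen of cartilage, had a log2 fold change of -0.46 ± 0.53 without the block.

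No chondrocyte gene was past the thresholds without the block, 11 of 18 were lower and 0 higher with it (background 0.718% and 2.43%), and 10 were lower with the block on pairs 2 and 3 (background 0.254%). All 18 had a negative log2 fold change, with a median of -0.94 (-0.45 without SR-717 replicate 1, -1.32 with the block), against 0.01 over all tested genes. Over the 16 alternatives the median ran from -1.93 to 0.16, the highest being that of limma with voom and quality weights, the 1 alternative that turned its sign. In 16 of 18 genes SR-717 was lower in all 3 pairs (background 12.4%). The groups did not overlap for 2 genes (background 2.26%), Sox9 and its partner Sox5, which was chosen after its values were seen and had 3.67, 3.02 and 2.89 CPM in the PBS libraries and 2.04, 2.42 and 1.79 CPM in the SR-717 libraries. Matn1, a cartilage matrix protein also chosen after its values were seen, had 0.509, 25.5 and 10.01 CPM in the PBS libraries and 0.0511, 7.72 and 1.33 CPM in the SR-717 libraries and the smallest p of the list with the block (log2 fold change -2.36, SE 0.38, past the thresholds), with 1 count in SR-717 replicate 1. In the hypertrophic list of 10 genes the level was 7.61, 8.50 and 9.004 in the PBS libraries and 6.39, 8.57 and 7.98 in the SR-717 libraries. Col10a1, the collagen of hypertrophic cartilage, had 168, 2339 and 2229.7 CPM in the PBS libraries and 8.84, 1669 and 402 CPM in the SR-717 libraries (with the block, log2 fold change -2.39, SE 0.80, past the thresholds), and 4 of 10 genes were lower with the block (background 0.718%) and 1 on pairs 2 and 3 (background 0.254%). Spp1 and Ibsp, bone matrix proteins shared with osteoblasts, had log2 fold changes of -0.19 ± 0.42 and -0.37 ± 0.58.

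**Figure D5:**
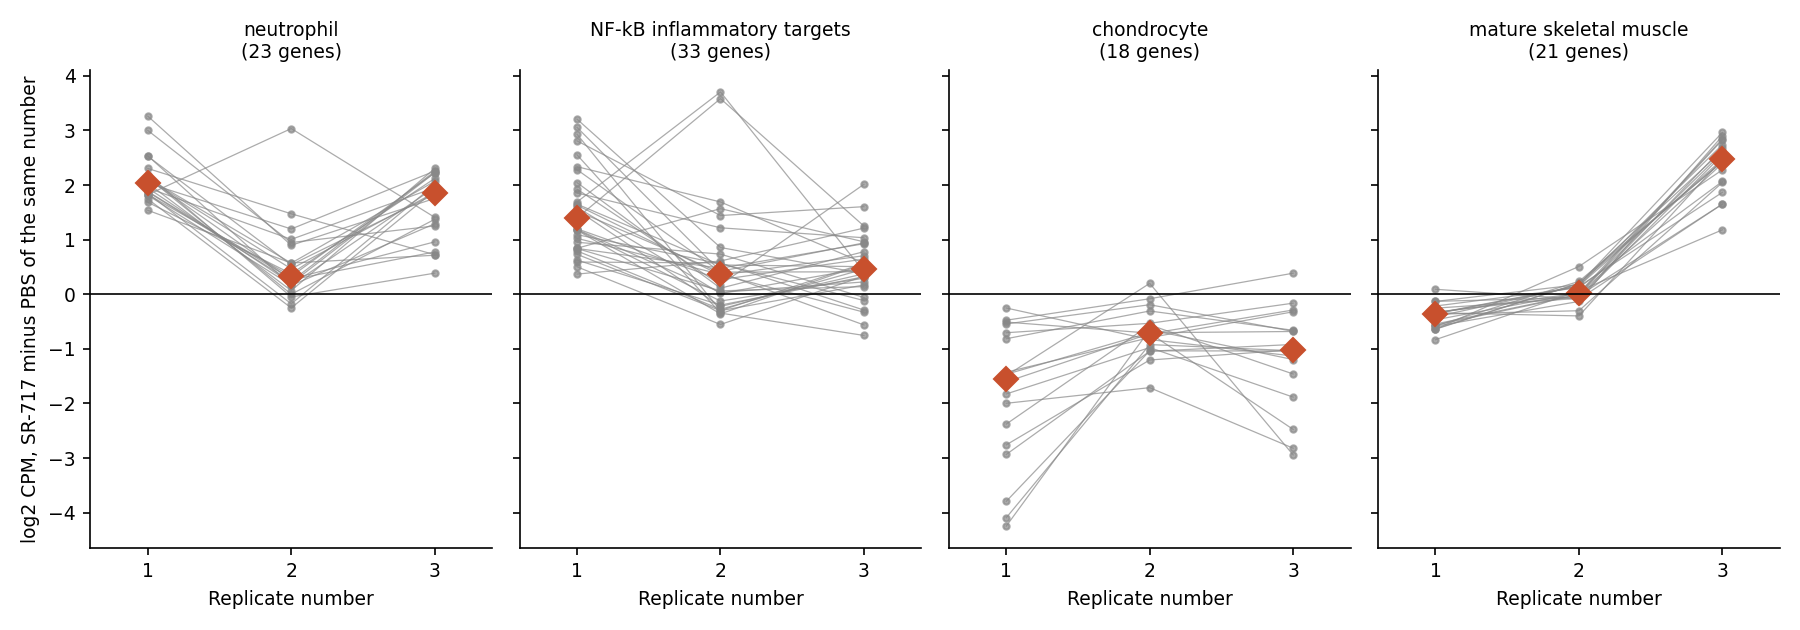
Difference in log2 CPM between the SR-717 and the PBS library of the same replicate number (vertical axis) for each number (horizontal axis), with 1 grey line per gene and an orange diamond at the median of the list. The medians of the neutrophil and NF-κB lists lie above 0 and that of the chondrocyte list below 0 at all 3 numbers, and the median of the muscle list at number 3 is 2.47.

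Bone-forming genes varied between libraries in both groups. The level of 17 osteoblast and osteocyte genes was 6.88, 7.69 and 8.41 in the PBS libraries and 6.53, 8.02 and 7.73 in the SR-717 libraries, and the differences within the numbers were -0.34, 0.34 and -0.68. Runx2, the transcription factor of the osteoblast lineage, had 75.5, 81.5 and 158 CPM in the PBS libraries and 98.5, 134 and 88.5 CPM in the SR-717 libraries (log2 fold change 0.03, SE 0.34, short of the thresholds), and Bglap, which encodes osteocalcin, had 124, 185 and 282 CPM in the PBS libraries and 61.6, 259 and 365 CPM in the SR-717 libraries (log2 fold change 0.22, SE 0.63, short of the thresholds). Col1a1 had 26710.1, 36042 and 36024 CPM in the PBS libraries and 20913, 34444 and 40926 CPM in the SR-717 libraries (log2 fold change -0.04, SE 0.37, short of the thresholds), and Col1a2, the other chain of type I collagen, had a log2 fold change of -0.09 ± 0.36. None of the 17 was past the thresholds with or without the block. Over the 43 genes of the cartilage and bone lists, SR-717 replicate 1 alone lay below the PBS range for 24 (55.8%, background 4.85%).

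Osteoclast genes did not pass the thresholds. The level of 17 osteoclast genes was 6.52, 6.70 and 6.74 in the PBS libraries and 6.14, 6.72 and 6.72 in the SR-717 libraries, and 0 of 17 were past the thresholds in either direction with or without the block. Ctsk, the collagen-degrading protease of osteoclasts, had 3014, 3095 and 4301 CPM in the PBS libraries and 1967, 3369 and 3718 CPM in the SR-717 libraries (log2 fold change -0.20, SE 0.32, short of the thresholds). Acp5, the tartrate-resistant phosphatase, had 2249, 2446 and 2839.5 CPM in the PBS libraries and 1476, 2191 and 2648 CPM in the SR-717 libraries (log2 fold change -0.25, SE 0.27, short of the thresholds), and Mmp9 had 2317, 3099 and 3164 CPM in the PBS libraries and 2022, 2876 and 2845 CPM in the SR-717 libraries (log2 fold change -0.15, SE 0.25, short of the thresholds). In these 3 genes SR-717 replicate 1 was the lowest of all libraries. Dcstamp, which drives cell fusion, had 37.5, 45.0 and 57.6 CPM in the PBS libraries and 30.3, 53.2 and 58.3 CPM in the SR-717 libraries (log2 fold change 0.02, SE 0.29, short of the thresholds), and Nfatc1, the master transcription factor, had 144, 161 and 145 CPM in the PBS libraries and 143, 136 and 161 CPM in the SR-717 libraries (log2 fold change -0.04, SE 0.15, short of the thresholds). The median log2 fold change of the list was -0.16, and 0.01 without SR-717 replicate 1. KEGG's osteoclast differentiation pathway, which also holds many immune receptors and NF-κB genes, had 0 of 118 genes past the thresholds and 13 higher with the block (background 2.43%), and 2 with the block on pairs 2 and 3 (background 0.699%).

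The signals that drive osteoclast formation varied between libraries. Tnfsf11, which encodes RANKL, had 24.1, 4.44 and 31.4 CPM in the PBS libraries and 30.9, 4.84 and 3.93 CPM in the SR-717 libraries (log2 fold change -0.59, SE 0.99, short of the thresholds), with PBS replicate 2 lying between SR-717 replicates 2 and 3. Its receptor Tnfrsf11a had 26.6, 21.4 and 24.9 CPM in the PBS libraries and 23.9, 24.1 and 23.9 CPM in the SR-717 libraries (log2 fold change -0.02, SE 0.16, short of the thresholds), and the decoy receptor Tnfrsf11b had 7.12, 4.61 and 7.18 CPM in the PBS libraries and 6.39, 5.72 and 5.26 CPM in the SR-717 libraries (log2 fold change -0.12, SE 0.26, short of the thresholds). Csf1 had a log2 fold change of 0.14 ± 0.23. The level of the 8 genes of this axis was 4.87, 4.31 and 4.77 in the PBS libraries and 5.08, 4.44 and 4.35 in the SR-717 libraries, and 0 of 8 were past the thresholds.

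Muscle genes differed most in the libraries numbered 3. The level of 21 genes of mature skeletal muscle was 9.28, 9.95 and 7.90 in the PBS libraries and 8.87, 9.99 and 10.27 in the SR-717 libraries, with PBS replicate 3 the lowest and SR-717 replicate 3 the highest, a difference of 2.36 in pair 3 against -0.41 and 0.04 in the others. Acta1, the actin of skeletal muscle, had 3501, 6651 and 1362 CPM in the PBS libraries and 2933, 6312 and 7989 CPM in the SR-717 libraries, and Atp2a1, the calcium pump of fast fibres, 2415, 3979 and 687 CPM in the PBS libraries and 1910.2, 4037 and 4936 CPM in the SR-717 libraries. The level of 11 genes of regenerating muscle was 3.24, 3.70 and 2.12 in the PBS libraries and 3.30, 3.67 and 4.04 in the SR-717 libraries. Myh8, the perinatal myosin, had 60.8, 51.6 and 18.8 CPM in the PBS libraries and 78.2, 75.0 and 81.1 CPM in the SR-717 libraries (log2 fold change 0.84, SE 0.41, short of the thresholds), and Myh3, the embryonic myosin, a log2 fold change of 0.41 ± 0.38. Without the block 0 of these 32 genes were past the thresholds, and the share of muscle in each specimen was not tested as a cause. The level of 11 adipocyte genes was 2.60, 4.08 and 2.45 in the PBS libraries and 3.56, 3.82 and 4.10 in the SR-717 libraries, with Car3 past the thresholds, and Fabp4, a fatty acid carrier, had a log2 fold change of 0.04 ± 0.21.

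Erythroid genes were highest in both libraries numbered 2, at 1.66, 6.30 and 2.37 against 2.13, 6.09 and 4.45 for PBS and SR-717 over 17 genes. Hbb-bs, a β-globin, had 169.7, 3337 and 632 CPM in the PBS libraries and 332, 2941 and 1325 CPM in the SR-717 libraries, and Hba-a2, an α-globin whose reads can be shared with Hba-a1, had a log2 fold change of 0.08 ± 1.21. The levels of 11 megakaryocyte and platelet genes were 0.67, 3.20 and -0.14 against 1.21, 3.32 and 1.40 and those of 5 mast cell genes 1.74, 2.72 and 1.61 against 1.88, 2.61 and 2.69. Ppbp, a platelet chemokine, had 7.01, 55.1 and 3.004 CPM in the PBS libraries and 12.6, 100.01 and 17.2 CPM in the SR-717 libraries and was past the thresholds with the block (1.36 ± 0.39), and Pf4, Kit and Mcpt4 had log2 fold changes of 0.04 ± 0.44, 0.15 ± 0.29 and 0.46 ± 0.50. No gene of these 3 lists was past the thresholds without the block.

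Fibroblast and endothelial levels overlapped between the groups. The level of 17 fibroblast and progenitor genes was 8.66, 8.45 and 8.65 against 8.66, 8.35 and 8.61 for PBS and SR-717, and that of 15 endothelial genes 6.49, 6.50 and 6.33 against 6.30, 6.43 and 6.52, with 0 genes of either past the thresholds or, with the block, past them. Col3a1 and Fn1 had log2 fold changes of -0.02 ± 0.32 and -0.21 ± 0.35, and Pecam1 and Cdh5, adhesion molecules of the endothelium, -0.0043 ± 0.18 and -0.03 ± 0.16. Tendon genes were at 6.01, 5.69 and 5.87 against 5.45, 5.41 and 5.90 over 6 genes, where Fmod and Thbs4 had -0.36 ± 0.39 and 0.10 ± 0.35. Schwann cell genes were at 1.53, 2.14 and 1.54 against 1.47, 2.05 and 1.95 over 10 genes, where Mbp, a protein of myelin, had 0.46 ± 0.35.

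General cell programs were also compared. Cell cycle genes were at 4.73, 5.21 and 4.95 against 5.22, 5.35 and 4.86 over 33 genes, with 0 past the thresholds, and Mki67 and Mcm6 had log2 fold changes of 0.29 ± 0.34 and 0.04 ± 0.22. Glycolysis and hypoxia genes were at 6.62, 6.31 and 5.92 against 7.12, 6.14 and 6.33 over 25 genes, where Adm alone was past the thresholds and Gapdh and Aldoa had 0.44 ± 0.28 and 0.44 ± 0.42. The unfolded protein response was at 5.995, 5.97 and 5.98 against 6.27, 5.85 and 5.81 over 20 genes (Hspa5, -0.24 ± 0.26; Pdia6, 0.06 ± 0.15), and NRF2 targets of the antioxidant response at 5.41, 5.29 and 5.02 against 6.20, 5.32 and 5.22 over 17 genes (Prdx1, 0.21 ± 0.21). Hmox1, which degrades heme, had 193, 133 and 149.96 CPM in the PBS libraries and 505, 122 and 120.3 CPM in the SR-717 libraries. For the glycolysis, unfolded protein and NRF2 lists SR-717 replicate 1 was the highest library, and without the block none of the 20 and 17 genes of the last 2 lists was past the thresholds. KEGG's oxidative phosphorylation pathway was at 6.77, 6.76 and 6.87 against 6.64, 7.01 and 7.04 over 126 genes, with 0 past the thresholds, and mt-Co1 and mt-Co2, subunits of cytochrome c oxidase, had 0.08 ± 0.37 and 0.31 ± 0.59.

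By the naming rule, the 5 genes farthest above the PBS range in SR-717 replicate 1 alone were Gbp5, Xlr, Ighg2b, Slco4c1 and Cxcl9. Gbp5, a guanylate-binding protein, had 8.59, 2.81 and 1.67 CPM in the PBS libraries and 150.6, 5.77 and 2.54 CPM in the SR-717 libraries, and Cxcl9, a chemokine induced by interferon-gamma, had 9.10, 4.10 and 2.61 CPM in the PBS libraries and 107, 3.77 and 4.16 CPM in the SR-717 libraries. Ighg2b, an antibody heavy chain, had 2.20, 7.24 and 0.946 CPM in the PBS libraries and 106, 2.98 and 0.463 CPM in the SR-717 libraries. For Ighg2b, SR-717 replicate 3 lay below the lowest PBS library by over 1.5-fold, while for Gbp5 and Cxcl9 replicates 2 and 3 lay within the PBS range. Without replicate 1 the log2 fold changes were -0.07, -0.42 and -0.99. Xlr and Slco4c1, an organic anion transporter, reached 27.6 and 14.1 CPM there against at most 1.58 and 1.07 CPM elsewhere. Below the range, Snorc, a membrane proteoglycan of chondrocytes, had 5.94, 54.5 and 48.2 CPM in the PBS libraries and 0.102, 33.4 and 13.8 CPM in the SR-717 libraries, Cnmd, the cartilage protein chondromodulin, had 16.4, 142 and 96.3 CPM in the PBS libraries and 0.767, 90.1 and 42.0 CPM in the SR-717 libraries, and Col9a3, a chain of cartilage collagen IX, had 43.1, 588 and 309 CPM in the PBS libraries and 3.02, 286 and 150.2 CPM in the SR-717 libraries (with the block, log2 fold change -1.85, SE 0.64, past the thresholds). PBS replicate 1 was the lowest PBS library for all 3, as it was for Col2a1 and Col10a1.

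Fewer genes rested on the other libraries. SR-717 replicate 2 alone was above for Bank1, a scaffold protein of B cells, at 0.848, 1.17 and 0.445 against 1.48, 7.11 and 0.405 CPM for PBS and SR-717, and for Zbtb26, a zinc finger gene, at 4.47, 3.22 and 4.62 against 4.45, 17.1 and 3.87 CPM. Tigd4, Map7d3 and Zfp773 reached 3.25, 4.65 and 5.72 CPM in it. It was alone below for Actg2, the actin of visceral smooth muscle, at 71.4, 32.7 and 26.6 against 33.3, 12.6 and 23.5 CPM (with the block, log2 fold change -0.89, SE 0.28, past the thresholds), and for Ugt1a6b, Zfp433, Or2h2 and Prss12, with at most 0.930 CPM. SR-717 replicate 3 alone was above for Cish, a feedback inhibitor of cytokine signaling, at 5.82, 12.1 and 6.17 against 14.0, 5.58 and 27.0 CPM, and for Lrrc14b, St8sia5, Cyp11a1 and Prph at 5.72, 8.62, 2.37 and 2.49 CPM, of which Cyp11a1, the enzyme that starts steroid synthesis, was past the thresholds with the block (1.07 ± 0.40). It was alone below for Lilrb4a, an inhibitory receptor of myeloid cells, at 33.3, 2.09 and 15.2 against 66.9, 6.46 and 0.173 CPM, where the libraries numbered 1 were the highest of their groups, and for Eps8l1, Ccdc24, Tbx6 and Cd300e, at 0.405 CPM or less in it.

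Within the numbered pairs, 1548 genes (11.0%) were higher in SR-717 in all 3 and 1742 (12.4%) lower. At 1.5-fold or more in each pair the counts were 98 (0.697%) and 38 (0.270%). The neutrophil list held 6 of these higher genes among its 23 members, the NF-κB list 4 among 33, and the chondrocyte list 8 of the lower genes among 18.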

How the data were processed

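RNA-seq of callus was used from 6 of 9 libraries. The authors deposited 1 table with expected counts and TPM for 22054 genes. The expected counts are estimated counts per gene that were not scaled between libraries (8.91% of values were not whole), and the TPM values were scaled by the authors for gene length and library size. The submitters' processing notes name the genome build mm10; the aligner, counter, annotation and strand setting of the counting are not given in the sources used here. The deposited annotation columns also hold pathway names, and no column of the authors' own comparisons was used.

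Libraries were grouped by their sample descriptions. The test was planned for whole counts, so the expected counts were rounded. Genes with low counts were removed with filterByExpr (minimum count 10, minimum total 15), library sizes were scaled by TMM, and SR-717 was compared with PBS by edgeR's quasi-likelihood test (edgeR 4.0.16, R 4.3.3) with Benjamini-Hochberg adjustment. SE is the size of the log2 fold change divided by the square root of F. CPM in the text has no prior count, and log2 CPM for levels and ranges uses a prior count of 2. Floors cover counting error only, whereas SE also reflects the spread between libraries. The scripts were tested on simulated data. With 3 libraries against 3, an exact permutation test cannot go below p = 0.1, so none is given for single values.

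The correlations of deviations from the group means were 0.668, 0.360 and 0.136 for replicate numbers 1, 2 and 3. All were over 0.1, so the numbers were taken to pair the libraries. A fit with the number as a block stands beside the unblocked one. This rule cannot settle the pairing of numbers 2 and 3, since the shared deviation of the libraries numbered 1 ties the deviations of the others. SR-717 replicate 3 correlated more with PBS replicate 2, at 0.367, than with PBS replicate 3. The correlation of SR-717 replicate 2 with PBS replicate 3 was 0.207. DESeq2 1.42.0, limma 3.58.1 with voom, other filters, scalings and thresholds, and leaving out each library were alternatives.

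Genes named are the 8 in each direction with the largest fold change past the thresholds without overlap and with a mean of at least 1 CPM in a group, up to 8 in each direction outside the PBS range in all SR-717 libraries, the 5 in each direction for each single library, key genes of each list, and in each list the members past the thresholds and the 2 highest in CPM; predicted genes were left out, and others are said to have been chosen after their values were seen. All genes of this rule are given, except 1 that is not reported here. The comparison and the 31 gene lists and 4 KEGG pathways were chosen with earlier results of these data known. Positions are from GENCODE M21, matched by gene ID for 21964 of 22054 genes, and promoter windows are from RefSeq.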

Additional observations from a re-analysis of the deposited data

Results flagged for a closer look

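The hair genes of H-151 replicate 1, a library outside the comparison from mice given the STING inhibitor H-151, lay above the level of the PBS controls. Its mean log2 CPM over the 2 tested hair follicle genes, Tchh and Krt83, was 1.61 above the highest PBS library. The level was low, at 2.75 CPM for Tchh and 1.13 CPM for Krt83 in this library. Its keratin-associated protein genes summed to 7.89 CPM without TMM scaling, against 0 counts in each PBS library and 1 count in each of the other H-151 libraries. The origin of these transcripts was not tested.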

How the results depend on the processing

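The counts of genes past the thresholds moved with the method, in both directions, and 0 genes had an adjusted p under 0.05 in edgeR, with or without the block, or in DESeq2. Against 73 genes in all, 38 higher and 35 lower, DESeq2 gave 138 (93 and 45), limma with voom and quality weights 267 (116 of them lower), no filter on low counts 194 (141 and 53), a mean count of at least 50 gave 37 (20 and 17), all 9 libraries in one fit 176 (117 and 59), and a fold threshold of 2 gave 41 (27 and 14). With the replicate block, the pairing by number, the total was 443 (342 and 101), and 65 of the 73 were among them. Alternatives added after seeing the data gave 135 (99 and 36) with the block on pairs 2 and 3 and 118 (82 and 36) without both libraries numbered 1. Leaving out 1 library at a time gave 95 to 319, with 118 (80 and 38) without PBS replicate 1, 259 (108 of them lower) without PBS replicate 2, 95 (61 and 34) without PBS replicate 3, 106 (60 and 46) without SR-717 replicate 1, 101 (77 and 24) without SR-717 replicate 2, and 319 (261 and 58) without SR-717 replicate 3. The cause of these moves was not tested. Genes above the PBS range in all, 2 or 1 SR-717 libraries numbered 5, 59 and 1808, and those below it 4, 35 and 839. A distance of 2-fold gave 1, 14 and 951 above and 1, 4 and 238 below, and any distance 210, 1493 and 5361 above and 318, 1560 and 4914 below. On the TPM scale 9, 67 and 1396 lay below. Without SR-717 replicate 1 the counts for all and for 1 library were 15 and 250 above and 13 and 182 below, and without both libraries numbered 1 they were 66 and 507 above and 35 and 302 below. Against the PBS library of the same number 98 lay above and 38 below. Among single genes, the log2 fold change of Ighg2b turned from 3.38 to -1.16 with the block on pairs 2 and 3, and the block without that restriction put 16 more genes named by the rule past the thresholds and 1 short of them, and changed no other call of a gene named by the rule. Among genes chosen after their values were seen, it put Cxcl2, S100a8, Il1r2, Retnlg and Matn1 past the thresholds and Lgr5 short of them. Signs of genes short of the thresholds also turned with the block, as for Lilrb4a and Bglap. The 3 libraries a group limit what can be detected, and genes under 1 CPM rest on few counts.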
